A study of Homo sapiens with 3 samples.

Results

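The transcription start profile of EBC-1 cells that received a control siRNA was described from 1 library. Values of the other libraries of the series are set beside many of its levels, and no treatment effect is drawn from them. EBC-1 is an established human cell line from a squamous cell carcinoma of the lung, 1 line that is used here as a model of that tumour. The members described are all genes of the deposited expression table, ranked by their level in the control library. The table had 13479 rows, and rows with the same values in every library were counted once, which left 12926 distinct entries. A total of 519 entries held 1072 rows between them. The control library was 1 of 3 libraries in 3 groups of 1 library each. All 3 came from EBC-1 cells grown in RPMI1640 with fetal bovine serum and electroporated with 600 pmol of siRNA, and the protocol names a time of 72 h after plating. The other groups received siRNA 1 or siRNA 2 against RAB11A, a small GTPase of recycling endosomes. The control cells had thus been electroporated and transfected as well, and untransfected cells were not analysed here. With 1 library in a group, no level below has a replicate error, and each interval covers counting error only.

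Cap analysis of gene expression (CAGE) sequences short tags from the capped 5′ ends of transcripts. By the design of the method a tag marks a start whatever the length of the transcript, so levels are compared between genes as tags per gene with no division by length. Squamous epithelium such as that of skin is stratified. Its basal layer is marked by the transcription factor TP63 and by keratins such as KRT5 and KRT14, and its upper layers build a cornified envelope. Glandular and other simple epithelia carry KRT8 and KRT18 in place of those keratins. Cells that have moved towards a mesenchymal state carry vimentin and the factors ZEB1, ZEB2, SNAI1 and TWIST1, and tend to lose E-cadherin. EBC-1 is also known as a line in which the receptor gene MET is amplified.

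Levels were deposited as CPM, tags scaled to a common library total, and 1 tag was worth 0.04 CPM in the control library, so that 10 CPM stood for 250 tags. The step size gave a total of 24999978 tags, and the other libraries gave 24999972 and 24999969 tags. Counting error alone had a coefficient of variation of 20% at 1 CPM, 6.32% at 10 CPM and 2.00% at 100 CPM. The median entry stood at 21.5 CPM, with quartiles of 7.01 and 58.9 CPM. At least 1 CPM was reached by 12436 entries (96.2%), 10 CPM by 8821 entries (68.2%), 100 CPM by 1954 entries (15.1%) and 1000 CPM by 120 entries (0.928%). The 100 highest entries held 23.3% of the summed CPM, and the 10 highest held 5.44% (exact binomial 95% interval 5.43 to 5.45%). No row of the table stayed below 0.52 CPM in all libraries, so a gene under that level in every library would have no row. A gene without a row is therefore given as such and not as a gene at 0, since other reasons for a missing row cannot be told apart. Of 20175 protein-coding genes in the GENCODE annotation of GRCh37, 11338 (56.2%) had a row.

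**Figure D1:**
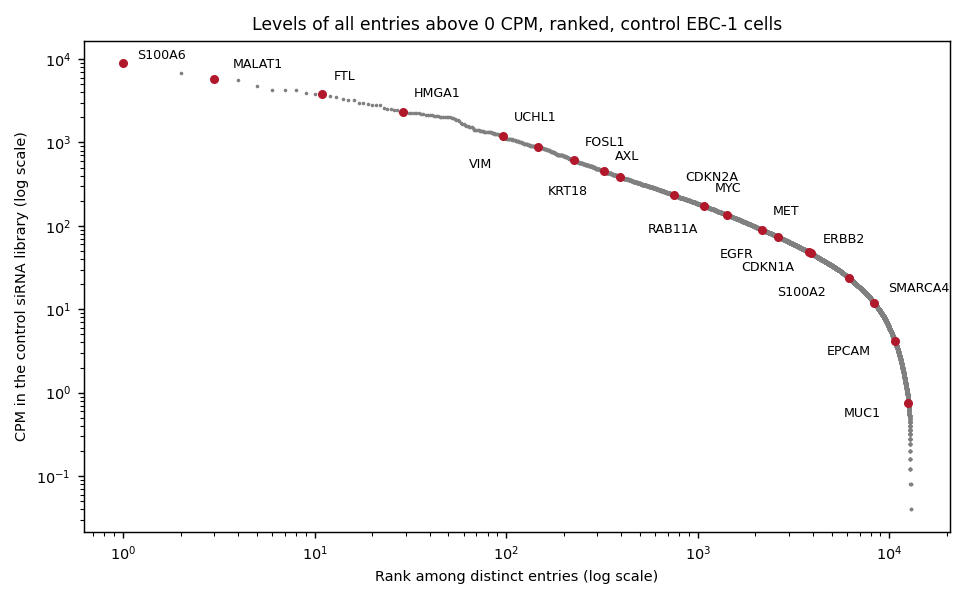
CPM of each distinct entry above 0 in the control siRNA library (vertical axis, log scale) against its rank (horizontal axis, log scale), with genes named in the text in red. The highest entry, S100A6, lies 416.7-fold above the median entry, and most entries lie in the steep part of the curve below 100 CPM.

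The gene targeted in the other groups was examined first as a check of the labels. RAB11A (ENSG00000103769, chr15:66018392-66184327, plus strand, GRCh37/hg19) had 135 CPM in the control library, 7.48 CPM with siRNA 1 and 22.7 CPM with siRNA 2. The control library stood highest, and its 3383 tags gave RAB11A rank 1426. RAB11B, its closest relative, had 124 CPM, beside 113 CPM with siRNA 1 and 97.4 CPM with siRNA 2, so in the control library RAB11A stood slightly above it, with intervals of 131 to 140.0 and 119 to 128 CPM that do not overlap.

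The control library was led by a small calcium-binding protein, by actin and thymosins, by metal-binding proteins and by the translation machinery. S100A6, a calcium-binding S100 protein found in proliferating and migrating cells (ENSG00000197956, chr1:153507075-153508720, minus strand, GRCh37/hg19), was first with 8968 CPM in the control, 9279 with siRNA 1 and 10523 with siRNA 2. Its 224187 control tags gave an exact Poisson 95% interval of 8930.4 to 9005 CPM. S100A11, a second member of the family, had 2604 CPM in the control library, 2945 CPM with siRNA 1 and 3048 CPM with siRNA 2. S100A10 followed at 585 CPM, S100A16 at 268 CPM and S100A4 at 250.4 CPM, while S100A2, the member tied to basal and squamous cells, stood at 23.6 CPM.

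Actin and its binding partners formed the next group. ACTB, cytoplasmic beta-actin, had 4765 CPM, beside 6243 CPM with siRNA 1 and 4606 CPM with siRNA 2. TMSB4X, a thymosin that holds actin monomers, had 3959 CPM in the control, 5938 with siRNA 1 and 5029 with siRNA 2. TMSB10, its relative, had 3600.3 CPM in the control library, 4129 CPM with siRNA 1 and 4391 CPM with siRNA 2. For both thymosins the control library was the lowest of the 3. All 28 genes of a list of cytoskeletal, S100 and annexin genes had a row and reached 10 CPM, 25 reached 100 CPM, and their median was 653.3 CPM against 21.5 CPM over all entries. The list was chosen with earlier results of these data known and leaves out lower members of its families, such as S100A2. Its counts therefore describe the genes picked and are no result about the group. Among the listed genes the myosin light chain MYL12A stood at 2461 CPM, profilin PFN1 at 2008 CPM, cofilin CFL1 at 1841 CPM and the tubulin TUBA1B at 669 CPM.

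Proteins that store metals were also near the top. MT2A, a metallothionein that binds zinc and copper, had 3841 CPM, beside 3692 CPM with siRNA 1 and 4662 CPM with siRNA 2. MT1E of the same family had 2971 CPM in the control, 2611 with siRNA 1 and 3057 with siRNA 2. MT1X followed far below at 119.9 CPM. FTL, the light chain of the iron store ferritin, had 3796 CPM in the control library, 1909 CPM with siRNA 1 and 2804 CPM with siRNA 2. FTH1, the heavy chain, had 2248 CPM, beside 845 CPM with siRNA 1 and 1488 CPM with siRNA 2. The control library was the highest of the 3 for both ferritin chains. MALAT1, a long noncoding RNA of nuclear speckles, was the third entry with 5831 CPM in the control, 5161 with siRNA 1 and 5632 with siRNA 2. PPIA, the cytosolic prolyl isomerase cyclophilin A, was the fourth with 5551 CPM in the control library, 6610.4 CPM with siRNA 1 and 5545 CPM with siRNA 2, and its start has a near copy elsewhere in the genome.

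Promoter windows of 4 members are shown. They stand for the leading gene, a TATA-type promoter, a pyrimidine-start promoter of a ribosomal protein gene, and the receptor that EBC-1 is known for. Each runs from 60 bases before to 40 bases after the start that RefSeq annotates on GRCh38.p14, read 5′ to 3′ on the strand of the gene. The windows follow the annotation and not the tag positions in these libraries. Their places on GRCh38.p14 are chr1:153535952-153536051, minus strand for S100A6, chr16:56608524-56608623, plus strand for MT2A, chr19:41860195-41860294, plus strand for RPS19 and chr7:116672136-116672235, plus strand for MET. Capitals mark TATAAA in MT2A, CTTTCC in RPS19, and CACGTG and GGGCGG in MET, while S100A6 holds none of the searched motifs in the bases shown. Its window does hold tataag before the start, which differs from TATAAA in the last base and is not counted by the exact search.
S100A6: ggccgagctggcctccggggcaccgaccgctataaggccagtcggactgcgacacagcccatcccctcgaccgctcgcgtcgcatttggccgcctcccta
MT2A: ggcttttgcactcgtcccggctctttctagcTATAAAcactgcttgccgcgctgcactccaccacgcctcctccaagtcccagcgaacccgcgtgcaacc
RPS19: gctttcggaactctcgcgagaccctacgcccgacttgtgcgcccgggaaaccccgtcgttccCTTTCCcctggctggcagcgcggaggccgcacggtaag
MET: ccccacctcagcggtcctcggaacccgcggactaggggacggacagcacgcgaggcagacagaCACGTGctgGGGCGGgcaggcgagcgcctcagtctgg

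Promoters from RefSeq were matched for 67 of the 77 protein-coding entries among the 100 highest. TATAAA, the core of the TATA box, was searched on the strand of the gene with its first base 35 to 22 bases before the start. It was present in 5 of the 67 (7.46%), against 1.54% of the 9154 entries matched and 2.44% of all 27305 promoters. The 5 genes were PPIA, MT2A, HIST1H2AC, HIST2H2AC and TXN. Only exact letters were counted, so variants of the TATA box are not in these shares. CTTTCC, letters of the pyrimidine run at which transcripts of the translation machinery start, was searched with its first base 10 bases before to 20 bases after the start. It was present in 10 of the 67 (14.9%), against 1.98% of matched entries and 1.67% of all promoters. Among the 42 of the 67 that are not ribosomal protein genes it was present in 1 (2.38%), near the share of matched entries. Of these 10, all except NPM1 encode ribosomal proteins: RPS19, RPS12, RPLP1, RPL35, RPS14, RPL31, RPL18, RPS27 and RPL28. The other motifs were searched on both strands over 300 bases, from 250 before to 50 after the start, and their shares lay closer to those of all matched entries. GGGCGG, the GC box, was present in 67.2% of the 67 and 72.7% of matched entries, and CCAAT in 41.8% and 37.2%. CCGGAAG, an ETS-type motif, was present in 23.9% and 21.1%, and CACGTG, the E-box, in 10.4% and 10.5%. TGANTCA was present in 7.46% and 4.17%, TGACNNNGC in 16.4% and 15.2%, and TGACGTCA in 4.48% and 3.47%. These matches describe letters in the windows only.

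Genes of the ribosome followed. The 80 entries of ribosomal protein genes held 8.82% of the summed CPM, and 29 of them reached 1000 CPM. RPS7 of the small subunit had 4273 CPM, beside 4382 CPM with siRNA 1 and 4511 CPM with siRNA 2. RPL10 of the large subunit had 4251 CPM in the control, 3376 with siRNA 1 and 3845 with siRNA 2. RPS23 stood at 3556 CPM, RPS21 at 3277 CPM, RPS19 at 2901 CPM, RPL36 at 2830.1 CPM, RPS20 at 2819 CPM and RPS12 at 2543 CPM. All 32 genes of a list of translation factors, likewise chosen with earlier results known, had a row, and their median was 397.8 CPM. Of the 32, 30 reached 10 CPM, beside 68.2% of all entries. EIF5A, the factor modified with hypusine, led them with 3237 CPM in the control library, 3592 CPM with siRNA 1 and 3477 CPM with siRNA 2, followed by NPM1, a nucleolar chaperone of ribosome assembly, at 2285 CPM and EIF4G2 at 2033 CPM.

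Processed pseudogenes, retrocopies of mature transcripts, stood beside them. They made up 408 entries and 5.92% of the summed CPM, and 15 of the 100 highest entries were of this type. Those named for a ribosomal protein gene were 95 entries with 3.56% of the summed CPM. RPL32P18, whose table symbol is AC004453.8, was second in the whole library with 6859 CPM, beside 6284 CPM with siRNA 1 and 6922 CPM with siRNA 2, while RPL32 itself had 578 CPM in the control, 616 with siRNA 1 and 638 with siRNA 2, an 11.9-fold gap in the control. RPS18P12 stood at 4254 CPM against 216 CPM for RPS18, RPS2P46 at 2949 CPM against 153 CPM for RPS2, and EEF1A1P5 at 2793 CPM against 1209 CPM for EEF1A1. RP11-475C16.1, another processed pseudogene, had 3279.9 CPM. Of 39 pseudogenes at 100 CPM or more whose source gene also had an entry, 25 stood above that gene. The opposite order was seen for RPL35P2 with 249.6 CPM against 2108 CPM for RPL35. A pseudogene and its source share sequence, and the sources used here do not say how tags that match both were assigned. The levels of these pseudogenes and of their source genes are therefore uncertain.

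**Figure D2:**
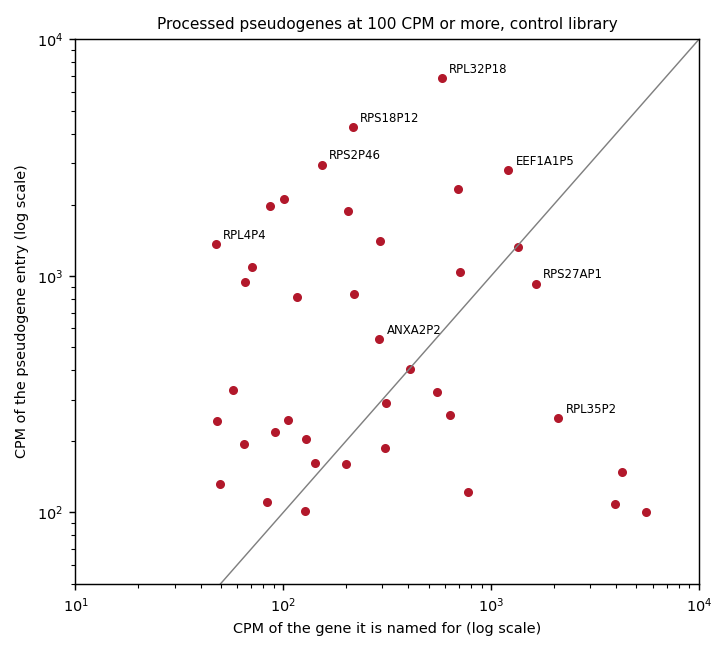
CPM of 39 processed pseudogenes at 100 CPM or more (vertical axis, log scale) against CPM of the gene each is named for (horizontal axis, log scale) in the control library, with 1 point per pair and a line of equal values. The 25 points above the line are pseudogenes listed above their source gene, RPL32P18 highest.

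Overlapping genes were uncertain in the same way. Among entries at 10 CPM or more with an annotated position, 31 overlapped a higher entry on the same strand with a value within 2%. Examples were SNORD43 at 2154 CPM inside RPL3 at 2175 CPM, and MYL6 at 1102 CPM beside MYL6B at 1105 CPM. Tags in such an overlap cannot be told apart between the 2 names. Entries without a position were not searched, such as ENO1-IT1 at 2279.5 CPM, listed next to ENO1 at 2282 CPM, so the count can miss cases.

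Genes of basic metabolism and growth, in lists chosen with earlier results known, mostly stood above 10 CPM, as did 68.2% of all entries. All 24 chaperones reached 10 CPM with a median of 437.4 CPM, among them HSPA5, the chaperone BiP of the endoplasmic reticulum, at 1393 CPM (744 and 781 CPM with siRNA 1 and siRNA 2). Of 28 mitochondrial genes 27 reached 10 CPM, with a median of 396.0 CPM and a range from 70.6 to 766.6 CPM, COX6C of complex IV being the highest at 767 CPM. Of 20 glycolysis genes 17 reached 10 CPM, led by GAPDH at 2553 CPM and ENO1 at 2282 CPM. SLC2A1, the glucose transporter GLUT1, stood at 164 CPM. LDHB, at 684 CPM, was above LDHA, at 209 CPM, and HK1, at 59.3 CPM, was above HK2, at 8.96 CPM. Every one of 26 proliferation genes reached 10 CPM, from 25.5 CPM for the checkpoint kinase BUB1B to 2049.6 CPM for STMN1, a protein that takes apart microtubules. MKI67, the proliferation antigen Ki-67, stood at 59.4 CPM and TOP2A at 115 CPM. HMGA1, an architectural chromatin protein abundant in embryos and tumours, had 2339 CPM in the control library, 2160.0 CPM with siRNA 1 and 2346 CPM with siRNA 2. The linker histone gene HIST1H1C stood at 1672 CPM and HIST1H2AC at 1524 CPM.

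Few markers of squamous and basal cells had a row, and those with a row were mostly low. Of 49 such genes, 10 had a row and 5 of these 10 reached 10 CPM, beside 68.2% of all entries, and their median was 9.98 CPM, beside 21.5 CPM. None of 12 keratins of stratified epithelium had a row, KRT5, KRT6A and KRT14 among them. TP63 and SOX2, lineage transcription factors of the list, had no row in the table used here, and neither did DSG3, PKP1, TRIM29 or IVL. PERP, a desmosomal protein, was the highest with 141 CPM, beside 128 CPM with siRNA 1 and 120.4 CPM with siRNA 2. SFN, the 14-3-3 protein stratifin, had 33.2 CPM in the control, 44 with siRNA 1 and 42.04 with siRNA 2. S100A2 had 23.6 CPM in the control library, 24.04 CPM with siRNA 1 and 23.2 CPM with siRNA 2. Among the transcription factors of the list, KLF5 had 15.6 CPM, beside 25.2 CPM with siRNA 1 and 18.3 CPM with siRNA 2. TFAP2C had 11.8 CPM in the control, 11.5 with siRNA 1 and 8.72 with siRNA 2. NOTCH1 stood at 8.2 CPM, PITX1 at 8.12 CPM, the barrier protein gene FLG at 3.4 CPM, TFAP2A at 1.76 CPM and the connexin gene GJB2 at 1.08 CPM. Most defining markers of the label lung squamous cell carcinoma thus had no row. A missing row does not show that a gene is silent, and only 56.2% of all protein-coding genes had one. Whether the line has kept squamous identity was not tested, and the line is called EBC-1 here.

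Keratins and junction genes of simple epithelium had a higher median than the squamous markers. Of 44 genes on the simple epithelium list, 25 had a row and 18 of these reached 10 CPM, beside 68.2% of all entries. That count lies near the background. The median of those with a row was 32.1 CPM, beside 21.5 CPM over all entries. KRT18 (chr12:53342655-53346690, plus strand, GRCh37/hg19) had 386 CPM in the control library, 475 CPM with siRNA 1 and 394 CPM with siRNA 2. Its partner KRT8 (chr12:53290971-53343738, minus strand, GRCh37/hg19) had 328 CPM, beside 358 CPM with siRNA 1 and 329 CPM with siRNA 2. Both genes have near copies of their starts elsewhere in the genome. KRT19 had 109 CPM in the control, 175 with siRNA 1 and 152 with siRNA 2, and here the control library was the lowest. KRT7 stood at 59 CPM and KRT80 at 16.1 CPM. Of 55 annotated keratin genes, a family counted after its values were seen, 6 had a row, beside 56.2% of all protein-coding genes. The sixth, KRT34, stood at 5.16 CPM.

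Junction genes covered a wide range. TJP1, the tight junction scaffold ZO-1, had 158 CPM, and CTNNB1 and CTNNA1, the catenins that tie cadherins to actin, had 146 and 117 CPM. CLDN1 stood at 75.5 CPM and OCLN at 32.1 CPM, while CLDN7 and CLDN3 were at 2.04 and 1.2 CPM. In the desmosome DSG2 stood at 41.1 CPM, JUP at 23.04 CPM, PKP2 at 13.2 CPM and DSP, desmoplakin, at 7.48 CPM. Among surface genes SPINT2, a protease inhibitor, had 249 CPM, but EPCAM, an antigen of most simple epithelia, had 4.2 CPM (105 tags, interval 3.44 to 5.08 CPM). CDH1, E-cadherin, had no row in the table used here. Of 8 regulators of the epithelial state only GRHL1 had a row, at 1.28 CPM, and ESRP1, ESRP2, GRHL2, ELF3, OVOL1 and OVOL2 had none.

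Mesenchymal genes were listed beside the simple keratins. Of 29 such genes, 20 had a row and 14 of these reached 10 CPM, beside 68.2% of all entries, so the count lies near the background. The median of those with a row was 32.0 CPM, beside 21.5 CPM over all entries. VIM, vimentin (chr10:17270240-17279592, plus strand, GRCh37/hg19), had 894 CPM in the control library, 692 CPM with siRNA 1 and 735 CPM with siRNA 2, so that its control value stood above those of KRT18 and KRT8. AXL, a receptor kinase of invasive cells, had 458 CPM, beside 537 CPM with siRNA 1 and 547 CPM with siRNA 2. S100A4 had 250.4 CPM in the control, 502 with siRNA 1 and 508 with siRNA 2, and the control library was the lowest of the 3. CAV1, the coat protein of caveolae, stood at 132 CPM, COL6A2 at 86.3 CPM and the hyaluronan receptor gene CD44 at 78.7 CPM. The factor ZEB2 had 26.4 CPM in the control library, 24.6 CPM with siRNA 1 and 26.5 CPM with siRNA 2. ZEB1 had 20.9 CPM, beside 23.6 CPM with siRNA 1 and 22.04 CPM with siRNA 2, so both were close across the 3 libraries. TWIST1 stood at 5.0 CPM, and SNAI1, SNAI2 and CDH2 had no row. In bulk RNA, fewer cells of a type and less RNA per cell cannot be told apart, and whether the same cells held KRT18 and VIM was not measured. Matrix genes covered a wide range, with COL6A1 at 44.8 CPM beside COL6A2, but FN1 at 11.6 CPM, COL1A2 at 1.76 CPM and COL1A1 at 1.08 CPM.

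**Figure D3:**
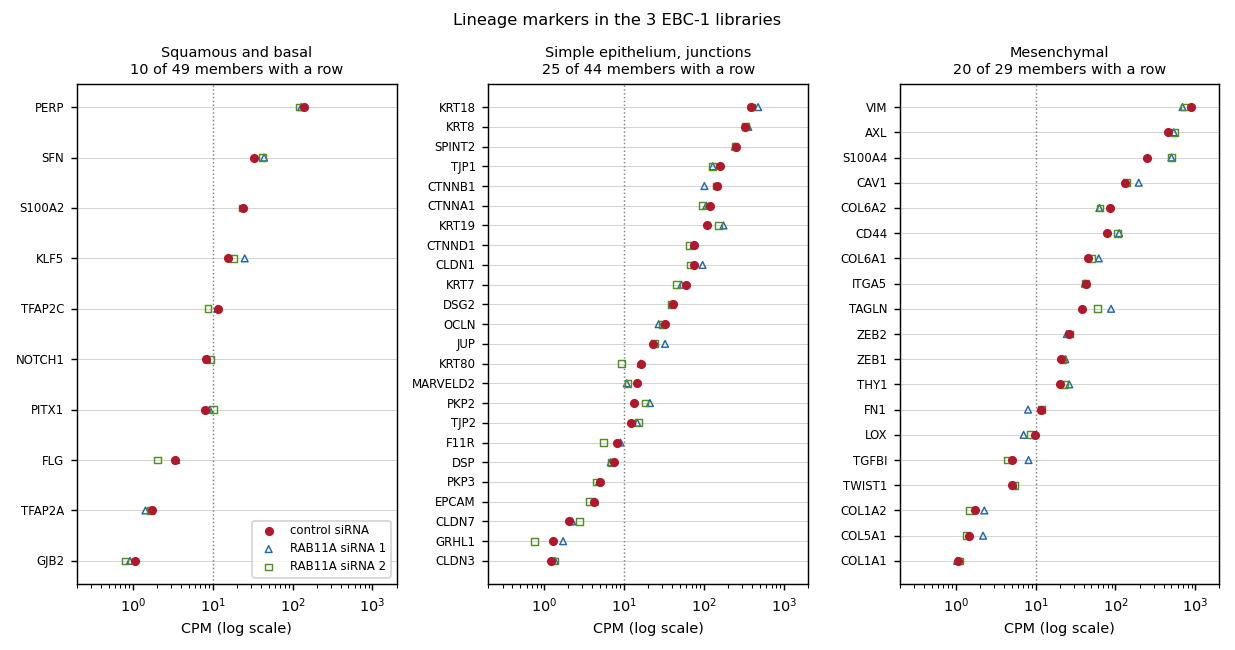
CPM (horizontal axis, log scale) of squamous, simple epithelial and mesenchymal list members with a row, except 2 that are not reported here, in the control (red circles), siRNA 1 (blue triangles) and siRNA 2 (green squares) libraries, with a dotted line at 10 CPM. Among squamous markers PERP alone exceeds 100 CPM, whereas KRT18, KRT8 and VIM exceed 300 CPM in all 3 libraries.

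Markers of other lung and body cells were mostly without rows, while 56.2% of all protein-coding genes had one. Of 21 glandular, airway and alveolar genes, 2 had a row, FOXA2 at 1.72 CPM and MUC1 at 0.76 CPM, and NKX2-1 and the surfactant genes had none. Of 13 neuroendocrine genes 5 had a row and 1 of these reached 10 CPM, beside 68.2% of all entries. That gene was UCHL1, a ubiquitin hydrolase abundant in neurons, which had 1207 CPM in the control, 853 with siRNA 1 and 972 with siRNA 2 and rank 96 of all entries. The other 4 were ENO2 at 6.2 CPM, SYP at 5.16 CPM, NCAM1 at 2.6 CPM and CHGB at 2.24 CPM, and NEUROD1, INSM1 and CHGA had no row. Of 31 markers of endothelium, leukocytes, fibroblasts, pericytes and red cells, 3 had a row: CD68, a lysosomal protein, at 45.2 CPM, and COL1A2 and COL1A1 at the values above. No endothelial or erythroid marker and no leukocyte marker other than CD68 had a row.

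Receptor tyrosine kinases were a short list led by AXL. Of 55 genes, 21 had a row and 10 of these reached 10 CPM, beside 68.2% of all entries, with a median of 9.72 CPM over those with a row. MET, the receptor of hepatocyte growth factor (chr7:116312250-116438431, plus strand, GRCh37/hg19), was second with 90.0 CPM in the control library, 91.8 CPM with siRNA 1 and 93.1 CPM with siRNA 2. Its 2250 control tags gave an interval of 86.3 to 93.8 CPM and rank 2163, below the 11452 tags of AXL. HGF, its ligand, had no row. EGFR (chr7:55086710-55279321, plus strand, GRCh37/hg19) came next with 74.5 CPM, beside 104 CPM with siRNA 1 and 87.5 CPM with siRNA 2, and the control library was the lowest. FGFR1 had 51.96 CPM in the control, 59 with siRNA 1 and 59.4 with siRNA 2. The ephrin receptor EPHA2 had 51.7 CPM in the control library, 49.8 CPM with siRNA 1 and 54.4 CPM with siRNA 2. ERBB2 had 46.8 CPM, beside 44.5 CPM with siRNA 1 and 38.9 CPM with siRNA 2. TYRO3, a relative of AXL, stood at 42.4 CPM, RYK at 38.7 CPM, EPHB4 at 17.1 CPM and PTK7 at 11.9 CPM. Counting intervals of FGFR1, EPHA2 and ERBB2 were 49.2 to 54.9, 48.9 to 54.6 and 44.2 to 49.6 CPM, and FGFR1 and EPHA2 did not differ beyond counting error. Lower entries were MERTK at 9.72 CPM, IGF1R at 7.8 CPM, INSR at 3.28 CPM, FGFR4 at 1.56 CPM and KIT at 0.56 CPM. ERBB3, FGFR2, FGFR3, ALK, ROS1, RET and KDR had no row.

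**Figure D4:**
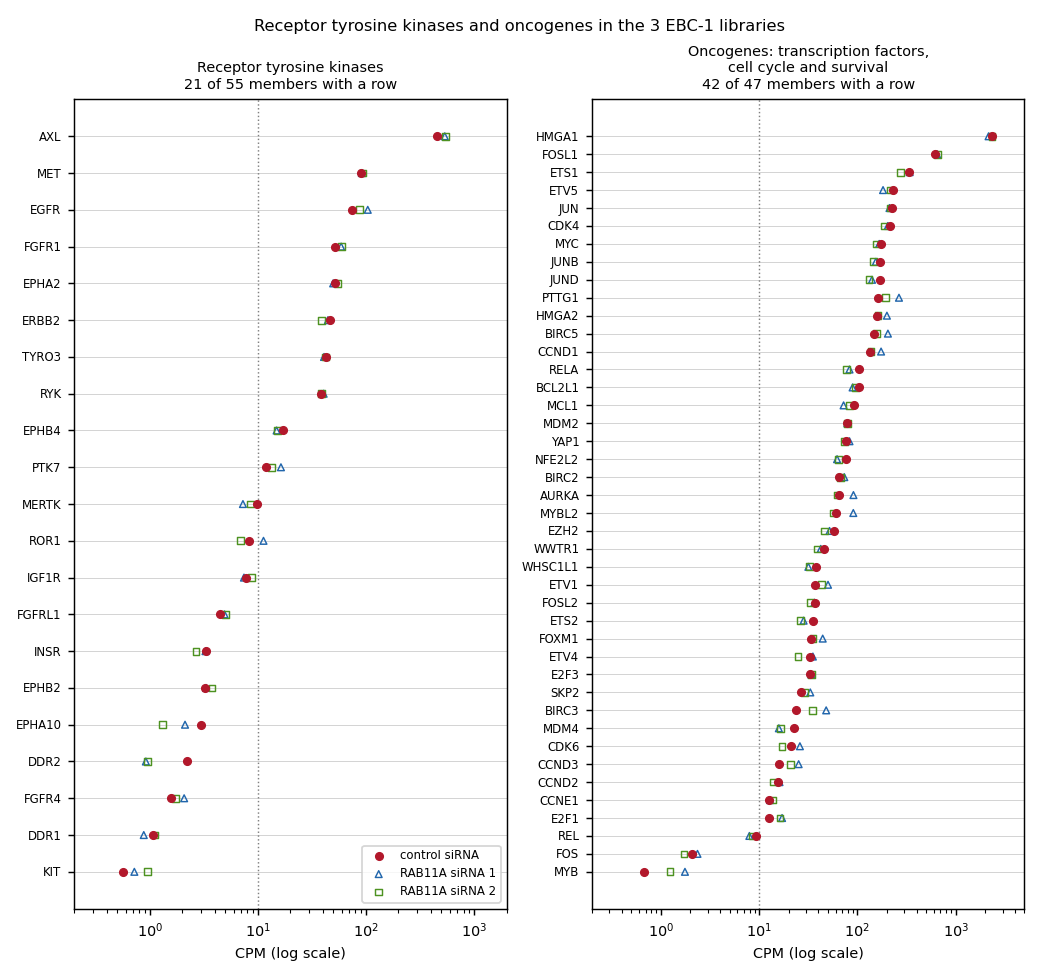
CPM (horizontal axis, log scale) of receptor tyrosine kinases (left) and of oncogenes that are transcription factors or act in the cell cycle and survival (right) in the control (red circles), siRNA 1 (blue triangles) and siRNA 2 (green squares) libraries, with a dotted line at 10 CPM. AXL lies above 400 CPM and every other kinase at or below 104 CPM, and HMGA1 and FOSL1 lead the oncogenes.

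Among 121 other receptors 92 had a row and 55 of these reached 10 CPM, beside 68.2% of all entries, with a median of 17.7 CPM. ITGB1, the common integrin beta chain, was the highest with 1037 CPM in the control, 953 with siRNA 1 and 828 with siRNA 2. Among the other adhesion and uptake receptors ITGA6 stood at 128 CPM, ITGA3 at 94.2 CPM, IGF2R at 122 CPM and TFRC, the transferrin receptor, at 83.9 CPM. In the cytokine and TNF group TNFRSF12A, the receptor of TWEAK, had 509 CPM in the control library, 520.1 CPM with siRNA 1 and 559 CPM with siRNA 2. TNFRSF1A stood at 165 CPM, LTBR at 107 CPM and IL6ST, the shared chain gp130, at 91.6 CPM, while FAS was at 1.0 CPM. PPARG, a nuclear receptor of fat metabolism, had 126 CPM, beside 97.6 CPM with siRNA 1 and 112 CPM with siRNA 2. Below it stood NR1H2 at 56.4 CPM and the glucocorticoid receptor NR3C1 at 17.4 CPM, and ESR1 and VDR had no row. All 10 TGF-beta and BMP receptors had a row, and 5 reached 10 CPM, TGFBR2 being highest at 36.2 CPM. FZD2 led the Wnt and Notch receptors at 84.4 CPM, followed by FZD6 at 49.2 CPM, and NOTCH2 stood at 18.7 CPM. Of 21 G protein-coupled receptors 2 reached 10 CPM, ADORA2B, an adenosine receptor, at 54.5 CPM and GPRC5A at 15.96 CPM.

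Ligands were listed at lower levels. Of 69 growth factors and cytokines 38 had a row and 21 of these reached 10 CPM, beside 68.2% of all entries, with a median of 12.7 CPM. MIF, the macrophage migration inhibitory factor, had 1398 CPM in the control, 1704 with siRNA 1 and 1772 with siRNA 2. VEGFA, the main angiogenic factor, had 143 CPM in the control library, 65.6 CPM with siRNA 1 and 94.04 CPM with siRNA 2. STC2, a secreted glycoprotein of stressed cells, had 111 CPM, beside 89.2 CPM with siRNA 1 and 90.3 CPM with siRNA 2. CXCL5, a neutrophil chemokine, had 88.5 CPM in the control, 44.6 with siRNA 1 and 54.2 with siRNA 2. For VEGFA, STC2 and CXCL5 the control library was the highest of the 3. FGF1 stood at 61.3 CPM, FGF2 at 55.5 CPM, TGFB1 at 53.9 CPM and GDF15 at 53.2 CPM. Among ligands of EGFR, HBEGF stood at 10.2 CPM, EREG at 8.36 CPM, TGFA at 5.08 CPM and BTC at 4.6 CPM, and AREG and EGF had no row. IL6 and CXCL8 had no row either.

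Most oncogenes were listed. Of 70 genes 65 had a row and 61 of these reached 10 CPM, beside 68.2% of all entries, and their median was 62.5 CPM. Below HMGA1, the AP-1 factor FOSL1 had 609 CPM in the control library, 646 CPM with siRNA 1 and 652 CPM with siRNA 2, while JUN stood at 225 CPM, JUNB at 170.1 CPM and FOS at 2.08 CPM. ETS1 had 337 CPM, beside 340.2 CPM with siRNA 1 and 272 CPM with siRNA 2, and ETV5 stood at 233 CPM, ETV1 at 37.2 CPM and ETV4 at 33.2 CPM. MYC had 172 CPM in the control, 167 with siRNA 1 and 156 with siRNA 2, at rank 1082, and MYCN and MYCL had no row. HMGA2, the fetal relative of HMGA1, stood at 159 CPM, YAP1 at 76.6 CPM and WWTR1, its partner TAZ, at 45.8 CPM.

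Signalling oncogenes ranged from 7.64 CPM for the adaptor GAB2 upwards. SHC1, an adaptor of receptor kinases, was the highest with 863 CPM in the control library, 595 CPM with siRNA 1 and 621 CPM with siRNA 2. YES1, a SRC family kinase, had 280.0 CPM against 11.9 CPM for SRC, and RRAS2 had 248 CPM. NRAS stood at 94.5 CPM and HRAS at 62.5 CPM. PIK3CA, whose start has near copies, stood at 28.6 CPM below PIK3CB at 46.1 CPM, and BRAF stood at 16.5 CPM. In the cell cycle CDK4 had 213 CPM and CDK6 21 CPM. CCND1, cyclin D1, had 135 CPM, beside 174 CPM with siRNA 1 and 137 CPM with siRNA 2, against 15.9 CPM for CCND3 and 15.6 CPM for CCND2. BCL2L1 stood at 104 CPM and MCL1 at 91.96 CPM, and BCL2 and TERT had no row. NFE2L2, which encodes NRF2, had 76.4 CPM, and its inhibitors KEAP1 and CUL3 had 47.9 and 99.2 CPM.

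Tumour suppressors were listed in 51 of 52 cases. Of these 51, 38 reached 10 CPM, beside 68.2% of all entries. Their median was 22.8 CPM, beside 21.5 CPM, so both values lie near the background. CDKN2A, which encodes the cyclin-dependent kinase inhibitor p16 and the protein ARF, was the highest with 234 CPM in the control, 237 with siRNA 1 and 217 with siRNA 2. CDKN1A, the cyclin-dependent kinase inhibitor p21, stood at 48.04 CPM, and the ubiquitin ligase gene MDM2 stood at 77.8 CPM. RB1 had 67.2 CPM in the control library, 67.2 CPM with siRNA 1 and 65.9 CPM with siRNA 2. SMARCB1 of the SWI/SNF complex had 113 CPM, SMARCA4, its ATPase, 12 CPM and SMARCA2, the other ATPase, 18.4 CPM. The lowest were NF1 at 1.24 CPM, CDKN2C at 1.76 CPM and CREBBP at 2.84 CPM.

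Genes near 4 loci often altered in lung cancer were also read. Around MET on chromosome 7, CAPZA2 had 176 CPM, beside 178 CPM with siRNA 1 and 163 CPM with siRNA 2. CAV1 had 132 CPM, TES 129.7 CPM, CAV2 90.2 CPM, ST7 40.2 CPM and FOXP2 4.88 CPM. Windows of 9 consecutive protein-coding entries were also read, which pass over genes without a row, such as WNT2 and CFTR near MET. Those that held MET had medians from 40.2 to 90.2 CPM, at percentiles 76.4 to 97.2 of all such windows, depending on which neighbours were included. On chromosome 9, MTAP beside CDKN2A stood at 18.5 CPM and CDKN2B at 5.56 CPM. On chromosome 11, CTTN, the actin regulator cortactin, had 408 CPM, CCND1 135 CPM and FADD 83.4 CPM, and ANO1 had no row. On the long arm of chromosome 3, where SOX2 and TP63 lie, 15 of 17 genes had a row, beside 56.2% of all protein-coding genes. SOX2 and TP63 were the 2 without a row. All 15 reached 10 CPM, beside 68.2% of all entries, led by the telomerase RNA gene TERC at 478 CPM, EIF4G1 at 295 CPM and ECT2 at 169 CPM. These genes were picked with earlier results known, so their counts are no result about the locus. Copy number was not measured, and levels of neighbours do not give it.

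Targets of NRF2, the regulator of antioxidant defence, were mostly listed. Of 26 genes 20 had a row and 19 of these reached 10 CPM, beside 68.2% of all entries, with a median of 193.8 CPM. Beyond the ferritins, TXN, thioredoxin, had 1336 CPM in the control, 1063 with siRNA 1 and 1429 with siRNA 2. TXNRD1, its reductase, had 676 CPM in the control library, 496 CPM with siRNA 1 and 518 CPM with siRNA 2, and NQO1 had 543 CPM. SLC7A11, the cystine transporter, stood at 134 CPM, HMOX1 at 87.3 CPM, and GCLC and GCLM, the subunits of the enzyme for the first step of glutathione synthesis, at 37.96 and 36.6 CPM. AKR1C1, AKR1C2, AKR1C3 and AKR1B10 had no row, whereas AKR1B1 stood at 273 CPM.

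Surface and immune genes covered a wide range. Of 52 such genes 43 had a row and 36 of these reached 10 CPM, beside 68.2% of all entries, with a median of 42.7 CPM. B2M, the light chain of MHC class I, had 2055 CPM, beside 2275 CPM with siRNA 1 and 2250.3 CPM with siRNA 2. HLA-B had 461 CPM in the control, 470.1 with siRNA 1 and 443 with siRNA 2. In the processing of their peptides TAPBP stood at 263 CPM but TAP1 at 20.2 CPM and PSMB9 at 42.7 CPM. HLA-DRA of class II was at 0.56 CPM, and CIITA had no row. CD274, the checkpoint ligand PD-L1, stood at 6.84 CPM, CD276 at 21.6 CPM and CD47 at 75.2 CPM, while CD59, a complement inhibitor, had 372 CPM and NT5E, the ectonucleotidase CD73, had 148 CPM. LGALS1, galectin 1, had 573 CPM. Of genes that antibodies in use or in trials are directed at, CD63 had 1064 CPM, SLC7A5 274 CPM, MSLN 28.6 CPM and F3, tissue factor, 11.8 CPM, and NECTIN4, FOLR1 and CEACAM5 had no row.

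Cancer/testis antigens, normally kept to germ cells, were nearly all without a row, while 56.2% of all protein-coding genes had one. Of 48 list members 3 had one, and 2 of these, MAGED1 at 211 CPM and MAGED2 at 172 CPM, belong to the MAGE-D branch that most tissues express. The remaining one, XAGE1C, had 124 CPM in the control library, 80.4 CPM with siRNA 1 and 0.4 CPM with siRNA 2. XAGE1C has many near copies on the X chromosome, so its level in any 1 library is uncertain. Of 39 HOX genes 14 had a row, with HOXB3 and HOXB6 sharing 1 entry, and 4 of these reached 10 CPM, beside 68.2% of all entries. Those 4 were HOXB7 at 19.8 CPM, HOXB9 at 15.3 CPM, HOXC8 at 11.3 CPM and HOXA2 at 10.0 CPM.

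Long noncoding RNAs were 760 entries with 2.10% of the summed CPM and a median of 3.72 CPM, against 25.6 CPM for 11138 protein-coding entries. After MALAT1, NEAT1, the scaffold of paraspeckles, had 1354 CPM, beside 816 CPM with siRNA 1 and 909.6 CPM with siRNA 2. SNHG5, a host of small nucleolar RNAs, had 1291 CPM in the control, 937 with siRNA 1 and 1126 with siRNA 2. RP11-186B7.4 followed at 1048 CPM, but it overlaps EIF4A1, which stood at 1052 CPM. C17orf76-AS1, another host of small nucleolar RNAs, had 709 CPM, and GAS5 stood at 20.2 CPM. HOTAIR, H19, MEG3 and UCA1 had no row.

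**Figure D5:**
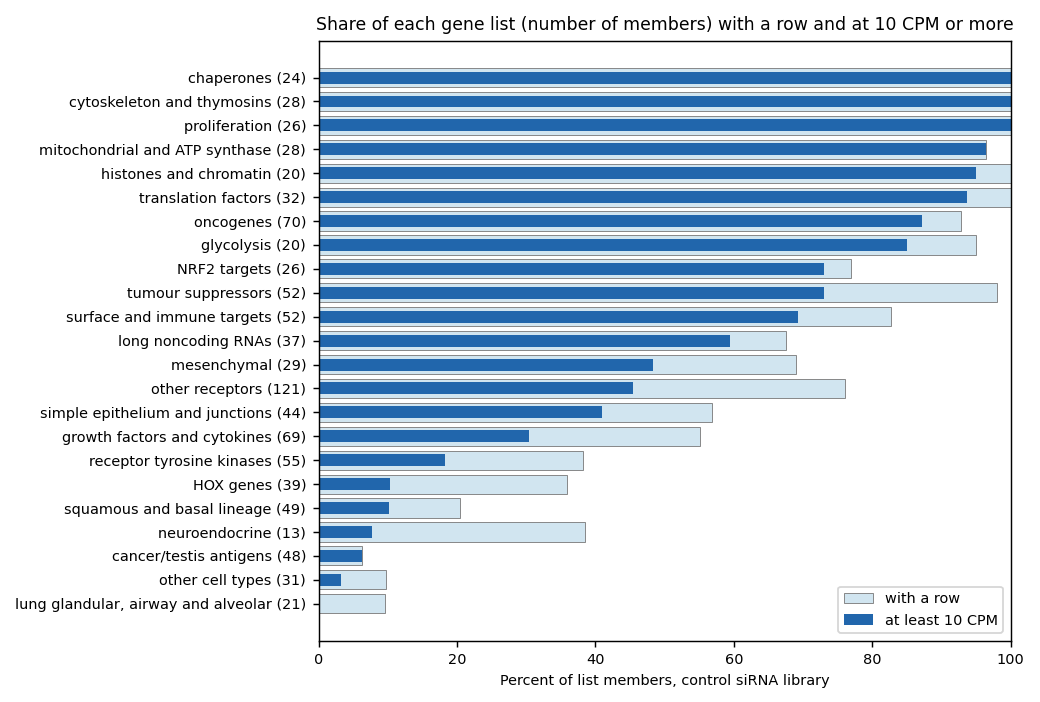
Share of the members of 23 gene lists with a row (light bars) and at 10 CPM or more (dark bars) in the control library (horizontal axis, percent of members), with list sizes in parentheses. At 10 CPM the chaperone, cytoskeletal and proliferation lists reach 100%, and the glandular, other cell type, cancer/testis, neuroendocrine and squamous lists lie at or below 10.2%. The lists were chosen with earlier results of these data known, so the shares describe the genes picked.

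The ranking of the control library was shared with the other libraries to a large extent. Of its 10 highest entries 9 were among the 10 highest with siRNA 1 and 9 with siRNA 2, and of its 25 highest 20 and 23. Of its 100 highest, 82 were among the 100 highest with siRNA 1 and 87 with siRNA 2. On the scale of CPM plus 1, and over entries with a mean of at least 5 CPM, none of the 100 highest control entries was 2-fold higher with siRNA 1, against 0.347% of all 10369 entries compared, and 1 was 2-fold lower, against 0.53%. That entry was FTH1, at the values above. With siRNA 2 none was 2-fold higher, against 0.165% of 10327 entries, and none was 2-fold lower, against 0.261%. At these shares the counts of 0 and 1 in 100 entries lie near the background and are no result about the highest genes. Each pair of libraries holds 1 library per group, and no difference between them has a replicate check.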

How the data were processed

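CAGE libraries were made from total RNA, with cDNA carried to the capped 5′ end, per the labels' protocols. The authors deposited gene levels as CPM in 1 table with a column for each library. The submitters' processing notes name BWA, HISAT2 and hg19. The sources used here give neither their roles nor the counting tool, the annotation or the treatment of tags that match several places. In all 3 libraries 100.0% of the deposited CPM values were whole tags to within 0.015 CPM, and these tags were used as counts. Tags summed over rows came to 25174787 in the control, above the total of 24999978. The control CPM summed to 1006992 over all rows and to 965895 over distinct entries, where rows with the same values count once. The cause of the excess was not tested. Levels carry exact Poisson intervals of the recovered tags at the 95% level. No source says whether tags are separate molecules, so intervals cover counting error only.

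No test between conditions is possible with 1 library per group. For libraries set side by side, entries were counted as 2-fold apart on CPM plus a pseudocount of 1, with a mean of at least 5 CPM. As an added alternative, an exact binomial test of the recovered tags with Benjamini-Hochberg adjustment at 0.05 called 2418 entries higher and 3074 lower with siRNA 1, and 1916 and 3098 with siRNA 2. It compares these libraries, not the conditions.

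Of the 13479 gene identifiers 13163 (97.7%) were found in the GENCODE annotation lifted to GRCh37, which gave positions and gene types. Starts of 50 bases were searched against the genome with minimap2 2.31, allowing 2 mismatches, and 1063 genes had a near copy. Near copies are mentioned above for some genes only. Other named genes have them too, among them NOTCH2, GAS5, RPL10, HOXB7, FTH1 and NFE2L2. Promoters came from RefSeq on GRCh38.p14. The rule for named genes took the 25 highest entries, the 3 highest members of each list or role, known lineage and lung squamous cancer genes with or without a row, and the 5 highest long noncoding entries. Some genes the rule covers are not reported here. Genes outside this rule were chosen once their values had been seen. The gene lists, families and members were chosen with earlier results of these data known. The software was Python 3.11.15, scipy 1.17.1, statsmodels 0.14.6, numpy 2.4.6, pysam 0.24.0, pandas 2.3.3 and matplotlib 3.10.9. The alternatives were other libraries or their mean, every row counted, thresholds of 5 and 20 CPM, leaving out entries with near copies, other pseudocounts and filters, and, chosen after seeing the data, leaving out processed pseudogenes or overlapping entries of nearly equal value.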

Additional observations from a re-analysis of the deposited data

How the results depend on the processing

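Counts of entries at 10, 100 and 1000 CPM stayed within 1.5 times of their value under every alternative tried. The share of the 10 highest, 5.44%, was 5.22% with every row counted, 5.75% with siRNA 1, 5.89% with siRNA 2, 5.67% for the mean of the 3 libraries, 5.53% without entries with a near copy, 5.37% without processed pseudogenes and 5.51% without overlapping entries of nearly equal value. In the same order the share of the 100 highest, 23.3%, was 22.7%, 23.5%, 24.1%, 23.5%, 23.3%, 22.4% and 23.5%. At a threshold of 5 CPM 3 neuroendocrine and 7 HOX genes passed, in place of 1 and 4, where HOXB3 and HOXB6 share 1 entry but are counted as 2 genes. At 20 CPM 3 squamous, 0 HOX and 2 genes of the chromosome 9 locus passed, in place of 5, 4 and 4. The remaining list counts stayed within 1.5 times under these settings, and all did with the other libraries and without near copies, processed pseudogenes or overlapping entries. Entries 2-fold higher and lower with siRNA 1, 36 and 55, became 19 and 29 with a pseudocount of 5 CPM and 16 and 31 with a minimum mean of 20 CPM, and without a filter 93 were lower. With siRNA 2 the 17 and 27 became 7 and 12 with the minimum of 20 CPM and 27 and 50 without a filter, and 14 were lower with the pseudocount of 5 CPM. The binomial test called 2418 and 3074 with siRNA 1 and 1916 and 3098 with siRNA 2. Leaving out a replicate was not possible with 1 library per group. No paired analysis was possible because each group has 1 library. At 1 CPM a value rests on few tags, and counting error alone reaches 20%. Spread between cultures is not known, and missing rows do not show that a gene is silent.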

Other observations

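Gene families picked by symbol after their values were seen gave further description of the control library. Their counts stand beside the 56.2% of all protein-coding genes that had a row. Of 19 SOX factors 8 had a row, and the highest were SOX12 at 59.2 CPM, SOX7 at 43.2 CPM and SOX9 at 12.04 CPM. Of 6 GATA factors 4 had a row, and GATA2, a blood and endothelial factor, and GATA4, a heart and gut factor, stood at 32.1 CPM (27.3 and 26.4 CPM with siRNA 1 and siRNA 2) and 30.8 CPM (30.2 and 33.1 CPM with siRNA 1 and siRNA 2), above GATA3 at 5.4 CPM and GATA6 at 2.96 CPM. Of 45 FOX factors 21 had a row, FOXK1 highest at 65.6 CPM. Of 23 cadherins named CDH only CDH24 had a row, at 1.04 CPM, and of 17 mucins only MUC1. Laminins had 9 of 12 genes with a row, and LAMB2 and LAMC1 stood at 79.6 and 78.9 CPM beside LAMA1 at 37.1 CPM, while LAMB3, a chain of the epidermal basement membrane, stood at 12.9 CPM. GSTP1, a glutathione transferase, had 1277 CPM (1204 and 1258 CPM with siRNA 1 and siRNA 2), ANXA5, an annexin, 757 CPM, and IL32, the highest of 6 interleukins with a row, 122 CPM. The matrix metalloproteinase MMP14 stood at 66.4 CPM and MMP1 at 6.96 CPM.

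Along the genome, the highest median over 9 consecutive protein-coding entries was 675.5 CPM, at the histone genes of chromosome 6 (chr6:26055968-26285866, GRCh37/hg19), from HIST1H1C to HIST1H4H. A window of BEX and TCEAL genes on the X chromosome (chrX:102564274-103360533, GRCh37/hg19) had a median of 254.9 CPM. In it NGFRAP1 had 385 CPM, TCEAL4 337 CPM, WBP5 273 CPM and BEX2 255 CPM in the control library, 93.4 CPM with siRNA 1 and 156 CPM with siRNA 2. A total of 9 entries were at 0 tags in the control library, and the limit of 3 tags for such a count corresponds to 0.12 CPM. DHRSX was 1 of them and had 21.4 CPM with siRNA 1 and 0 CPM with siRNA 2. F8A1, another, had 0 CPM with siRNA 1 and 7.52 CPM with siRNA 2. How tags that match several places were assigned is not given, so a 0 in 1 library does not show that a gene was off there.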
